A study of Mus musculus with 6 samples.

Results

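The 8 genes described here code for proteins of the gap junctions and tight junctions of epidermal keratinocytes, the main cell type of the skin surface. They are the connexin genes Gja1, Gjb2, Gjb5 and Gjb6, the claudin genes Cldn1, Cldn4 and Cldn7, and the occludin gene Ocln. They were chosen by name, and RefSeq accessions were paired with mouse gene symbols to find their rows among 25112 genes. Where a gene had several RefSeq transcripts, the row with the highest base mean (the authors' mean normalized count over the libraries compared) stood for it. All 8 genes were found, and 6 of them had an adjusted p-value.

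The cells were primary epidermal keratinocytes of wild-type C57BL/6 mice, taken from skin on postnatal day 1 to 3 and grown in medium with 0.05 mM calcium. Calcium at this low level limits the assembly of cell junctions in cultured keratinocytes, and both groups shared it. The control group (3 libraries) received miR-Control and the other group (3 libraries) pro-miR-148a, which raises the microRNA miR-148a; total RNA was taken after 48 h. The labels give 200 nM beside pro-miR-148a and do not make clear whether the control had the same dose. The labels do not say whether the libraries came from separate cultures or pups, so the p-values measure only the spread between these libraries, which may be technical. The expression table has no column per library. Values are therefore given as the authors' base mean, log2 fold change and standard error (SE), and whether single libraries of the groups overlapped cannot be read from it.

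Gap junctions are clusters of channels, built from connexins, that let ions and small molecules pass between neighbouring cells. Tight junctions seal the space between cells. Claudins form their strands and set which ions pass, occludin and its relatives join them, and cytoplasmic plaque proteins tie the strands to actin. In epidermis, tight junctions lie in the granular layer, and loss of Cldn1 in mice is lethal through water loss across the skin. Mutations of human GJB2 cause deafness and some skin disorders.

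No header of the authors' deposited table states whether its fold changes divide control by miR-148a or the reverse. MicroRNAs lower transcripts that pair with their seed, and genes whose 3' untranslated region (UTR) holds the full seed match TGCACTGA (an 8mer) had a median of 0.10 as deposited, against -0.01 for genes with no match. The values were therefore read as control over miR-148a, which is also how its title orders the groups, and all signs below are turned so that positive means higher with miR-148a. Every direction below rests on this reading and would turn with it, and the seed matches below are no independent evidence of it.

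The mature miR-148a-3p sequence and its relatives are shown because they carry the seed searched for in the 8 genes; capitals mark the seed, bases 2 to 8. The sequences are from RefSeq (GRCm38.p6).
mmu-miR-148a-3p: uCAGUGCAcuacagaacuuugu
mmu-miR-148b-3p: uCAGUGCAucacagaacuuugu
mmu-miR-152-3p: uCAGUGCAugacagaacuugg

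None of the 8 genes had an 8mer or a 7mer match (TGCACTG or GCACTGA) in its longest annotated 3' UTR, or in that of any other annotated transcript. Among 9882 tested genes with a UTR, 22.7% had an 8mer or either 7mer, and 39% had at least the 6mer GCACTG. Cldn4 alone among the 8 had a 6mer, at base 703 of its 994-base UTR, counted from the first base after the stop codon. Its surroundings are shown as the only seed match in the set, with the match in capitals.
Cldn4, chr5:134945392-134945421, minus strand, GRCm38, 3' UTR: accccttttccGCACTGtcttgctaatgtt
Genes whose best match was a 6mer had a median log2 fold change of 0.01 with signs turned, the same as genes with none.

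The connexins lay lower with miR-148a and the claudins higher. Of the 6 genes with an adjusted p-value, Gja1 and Gjb2 fell, Cldn1, Cldn4 and Cldn7 rose, and Gjb5 did not pass the test (adjusted p under 0.05). Across all 11038 genes tested, 33.5% were called, 16.7% as higher and 16.8% as lower. The share was 49.7% where the base mean was 100 or more, so a call in an abundant gene was common here. The median log2 fold change of the 6 genes was 0.00, against -0.01 for all tested genes, with the called connexins below 0 and the called claudins above.

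**Figure D1:**
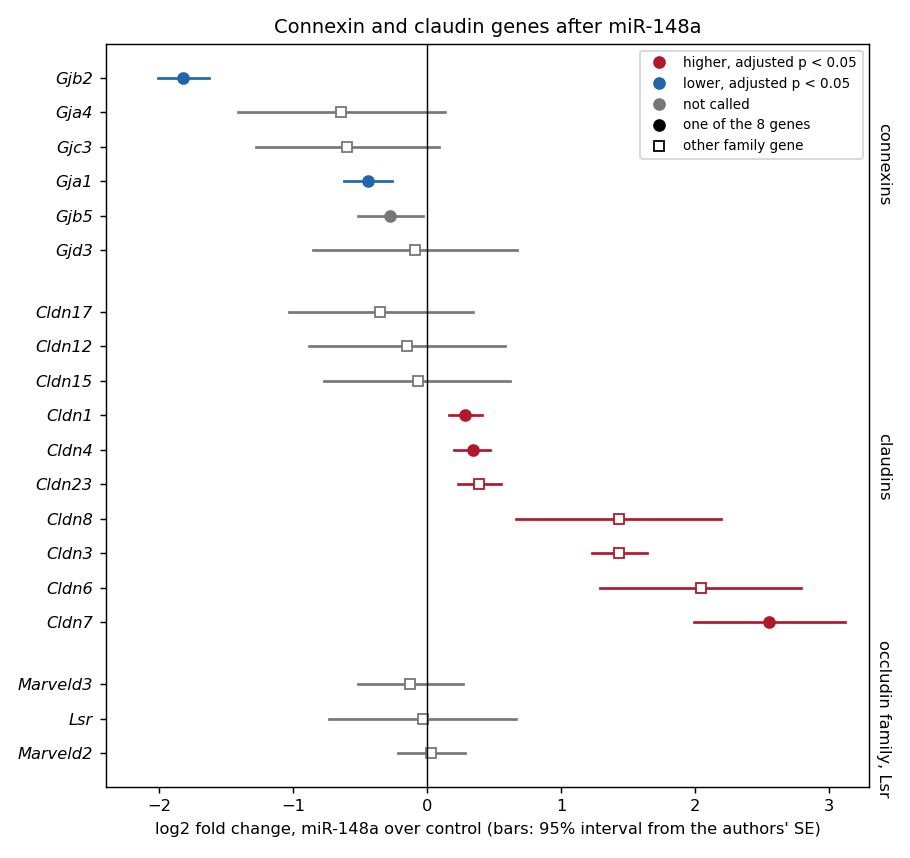
Log2 fold changes (x axis, miR-148a over control) of connexin, claudin and occludin-family genes with an adjusted p-value, in rows by gene; points are the authors' estimates and bars 95% intervals from their standard errors. The 6 connexins drawn lie left of 0, with Gja1 and Gjb2 called lower, and the 7 claudins called are all on the right.

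Gjb2 codes for a connexin that is scarce in resting epidermis between hair follicles and abundant in wounded or hyperproliferative skin. The authors' deposited table put its row, NM_008125, at a base mean of 1979 and, with the sign turned, at -1.82 ± 0.09 SE on the log2 scale (adjusted p = 8.17e-80). That is 3.53-fold lower with miR-148a, with a 95% interval of 3.1 to 4.01, and the 96th lowest value of the 11038 tested genes. With 3 libraries a group, base mean and fold change correspond to about 3084 normalized counts in the control and 874 with miR-148a.

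Gja1, which codes for the most widespread connexin of skin, present in basal and spinous keratinocytes and in fibroblasts, fell less. For its row, NM_010288, the authors' deposited table gave a base mean of 8461 and a log2 value of -0.44 ± 0.09 SE (adjusted p = 8.92e-06). This is a 1.36-fold lower level (95% interval 1.2 to 1.54), or about 9750 normalized counts in the control and 7172 with miR-148a. The intervals of Gjb2 and Gja1 are far apart, but the difference between the genes was not tested.

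Gjb5, a connexin gene largely restricted to epidermis and other stratified epithelia, stood at -0.28 ± 0.13 SE on the log2 scale at a base mean of 518 (NM_010291). With an adjusted p of 0.0816 from the authors' deposited table it did not pass. Its 95% interval ran from -0.52 to -0.03 before adjustment for many tests.

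Gjb6, the gene of a connexin of differentiating keratinocytes and of the inner ear, could not be compared. Of its 2 transcripts, the authors' deposited table listed 1 at 0 and gave the other, NM_001271663, a base mean of 2.04 and no adjusted p. Its log2 fold change of -0.33 ± 0.29 SE has an interval from -0.90 to 0.24. A transcript listed at 0 is not taken here as a measurement of absence.

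The other connexins tested had values on the same side. Of 20 connexin genes listed, 7 were at 0, 5 had no adjusted p and 8 were tested, of which 3 fell, 0 rose and 5 missed the threshold, against 16.8% of all tested genes called lower. The median log2 fold change of these 8 was -0.60. All 8 had negative values, from -1.82 to -0.09, and 4 of them had base means under 100.

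In the RefSeq gene order Gjb2 lies next to Gjb6. Panx1, which codes for a channel protein related in shape but not in sequence to connexins, went the other way. By the authors' deposited table it rose 1.29-fold (log2 value 0.37 ± 0.09 SE, base mean 1708, adjusted p = 0.000135). Panx1 itself has an 8mer for miR-148a-3p, shown because it rose in spite of a full match.
Panx1, chr9:15004505-15004534, minus strand, GRCm38, 3' UTR: ctctggtccccTGCACTGAgttccacagat

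**Figure D2:**
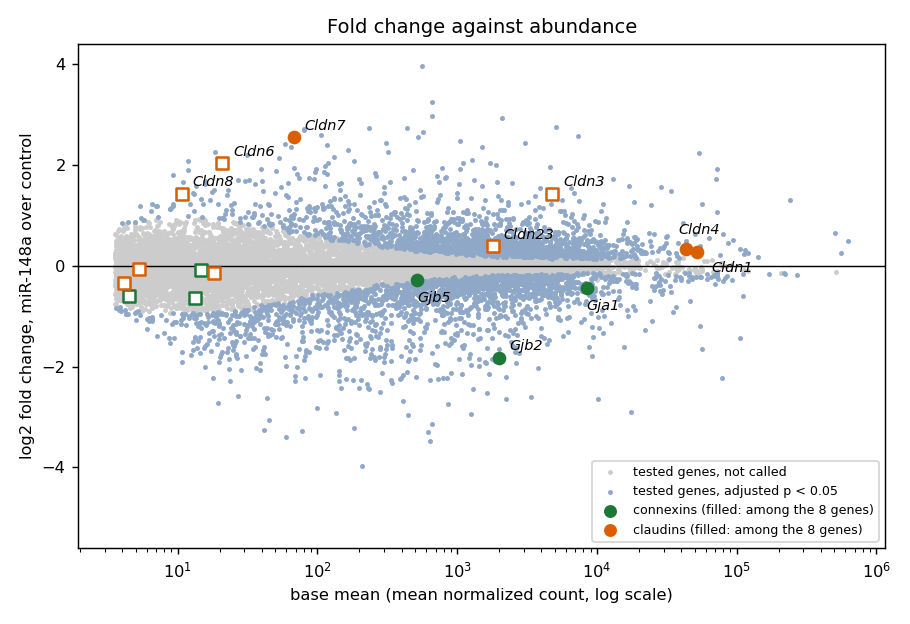
Log2 fold change (y axis, miR-148a over control) against base mean (x axis, log scale) for the 11038 tested genes; green marks 6 connexins and orange the claudins, filled where they belong to the 8 genes. Cldn1 and Cldn4 are among the most abundant genes and rose 1.22-fold and 1.27-fold, while Cldn7 and Gjb2 lie at the edges of the cloud.

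Cldn1, the main barrier-forming claudin of epidermis, was the most abundant of the 8 genes by base mean (52283, NM_016674). It rose 1.22-fold (95% interval 1.11 to 1.33), and the authors' deposited table gave 0.28 ± 0.07 SE on the log2 scale and an adjusted p of 9.25e-05. Cldn4, a claudin of the granular layer that is raised in many epithelial tumours, had a base mean of 43322 and rose by a similar amount, 1.27-fold (1.15 to 1.39). The authors' deposited table gave 0.34 ± 0.07 SE on the log2 scale (NM_009903, adjusted p = 6.22e-06). The intervals of Cldn1 and Cldn4 overlap. As differences in level these small folds are large: about 10283 more normalized counts for Cldn1 and 10150 for Cldn4.

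Cldn7, a claudin more typical of intestine, kidney and other simple epithelia, had the highest fold of the 8 genes from a low base mean. Its row NM_016887 was at a base mean of 67.9 and at 2.55 ± 0.29 SE on the log2 scale (adjusted p = 2.35e-17, authors' deposited table). This is 5.87-fold higher (95% interval 3.97 to 8.69) and the 14th highest value of all tested genes, from about 19.8 to 116 normalized counts. Its other transcript, NM_001193619, was near 0 in both groups by the authors' deposited table (base mean 1.11, log2 value -0.01 ± 0.22 SE).

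Across the claudin family 10 of 26 listed genes were tested, of which 7 rose, 0 fell and 3 missed the threshold, against 16.7% of all tested genes called higher. Of the rest, 9 were at 0, 6 had no adjusted p and 1 was not found in the table. Their median log2 fold change was 0.37. Cldn3, a claudin of simple epithelia that lies next to Cldn4 in the gene order, rose 2.7-fold at a base mean of 4784 (1.43 ± 0.10 SE, adjusted p = 2.13e-41, authors' deposited table). Cldn23, a claudin gene expressed in differentiating keratinocytes and colon, rose 1.31-fold (0.39 ± 0.08 SE, base mean 1801) there. Cldn6, known from embryonic epithelia, and Cldn8, known from distal kidney and colon, were picked after their values were seen. They rose 4.11-fold (2.04 ± 0.38 SE, base mean 20.8) and 2.69-fold (1.43 ± 0.39 SE, base mean 10.7), by the authors' deposited table. The 3 that missed it, Cldn12, Cldn15 and Cldn17, had rows of low counts, with intervals on both sides of 0 (authors' deposited table: base means 18.1, 5.31 and 4.12). Cldn12 has 4 transcripts, of which 2 were listed at 0. The endothelial claudin Cldn5 was listed at 0.

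The 4 tested claudins with a base mean of at least 100 all rose, and of the 4 such connexins 3 fell. Among genes that abundant, 26.4% were called higher and 23.4% lower.

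Levels of different genes were compared per kilobase of transcript, using the length of the GENCODE transcript paired with each row. On this scale of computed group levels, Cldn4 held 54.7% of the summed claudin level in the control and 52.1% with miR-148a. Cldn1 held 37.7% and 34.6%, and Cldn3 went from 5.33% to 10.9%. By its row with the highest base mean, Cldn7 made up 0.0384% and 0.17% in spite of its fold. It has 2 transcripts, where Cldn1, Cldn3 and Cldn4 have 1 each. Genes with 2 or more transcripts less often had an adjusted p (30.6%, against 50.5% with 1 transcript). Whether the level of Cldn7 is understated for this reason was not tested. The summed level of tested claudins was 38508 normalized counts per kilobase in the control and 51114 with miR-148a. For connexins the sum was 8571 and 5424, of which Gja1 made up 37% and 43.1%, and Gjb2 15% and 6.69%. These levels are arithmetic from the base mean and the fold change, carry no error of their own, and leave out Gjb6 and Gjd3.

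**Figure D3:**
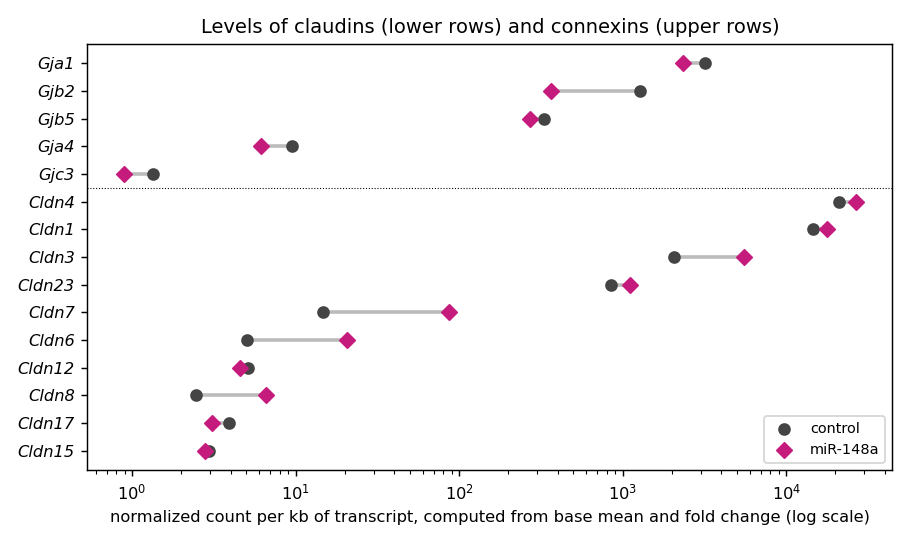
Computed normalized counts per kilobase of transcript (x axis, log scale) of tested connexins and claudins that have a transcript length, for control (circles) and miR-148a (diamonds). The diamonds lie left of the circles for the 5 connexins drawn, of which Gja4, Gjb5 and Gjc3 missed the threshold, and right of them for the 7 claudins called; Cldn12, Cldn15 and Cldn17 missed the threshold.

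Ocln, which codes for the tight junction protein occludin, could not be compared: the authors' deposited table listed 4 of its 5 transcripts at 0 and the fifth, NM_001360537, at a base mean of 0.279. Its relatives could be. Marveld2 (tricellulin), which seals the points where cells meet in threes, and Marveld3 stood at 0.03 ± 0.13 SE and -0.13 ± 0.20 SE on the log2 scale (authors' deposited table). Neither passed the test (adjusted p = 0.901 and 0.707), with 95% intervals of -0.22 to 0.28 and -0.52 to 0.27. In this list of 6 genes, 3 were tested and none was called.

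Other tight junction proteins showed no common direction. Among the junctional adhesion molecules and their relatives 2 of 5 tested genes fell and none rose (median -0.01). Beside this list and those that follow stand the shares over all tested genes, 16.7% called higher and 16.8% lower. At a base mean of at least 100 these shares were 26.4% and 23.4%. Cxadr, the coxsackievirus and adenovirus receptor, fell 1.62-fold by the authors' deposited table (-0.69 ± 0.07 SE, base mean 3654, adjusted p = 1.14e-22). F11r, which codes for junctional adhesion molecule A, and Clmp had log2 values of 0.08 ± 0.06 SE and -0.01 ± 0.18 SE there and missed the threshold. The other that fell, Jam2, was named after its value was seen (-0.85 ± 0.31 SE, base mean 43.6, authors' deposited table).

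Of 10 tested plaque genes 1 rose, 1 fell and 8 missed the threshold (median 0.06). Amotl2, an angiomotin-like actin regulator, rose 1.28-fold (0.36 ± 0.06 SE), and Arhgef2, a guanine nucleotide exchange factor held at tight junctions, fell 1.94-fold (-0.95 ± 0.23 SE, base mean 125), by the authors' deposited table. The mean over the transcripts of Arhgef2, weighted by base mean, was -0.67. The 2 most abundant plaque genes that missed the threshold were Amotl1, a further angiomotin-like gene, and Sympk (symplekin). Both were at 0.15 in the authors' deposited table (SE 0.07 and 0.09). The row of the scaffold gene Tjp1 was at a base mean of only 34.9 there, and it did not pass.

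Of 8 tested genes of the apical polarity complexes 1 rose and 2 fell (median 0.07). The GTPase gene Cdc42 rose 1.16-fold, while Mpp5, whose product Pals1 links the Crumbs complex to the junction, fell 1.31-fold and Pard6g 1.19-fold, in the authors' deposited table. Prkci, the atypical protein kinase C gene, was at -0.02 ± 0.06 SE and Pard6b at 0.02 ± 0.11 SE there, and neither passed.

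Adherens junctions, which hold keratinocytes together through cadherins and lie beside tight junctions, split evenly: 3 of 9 tested genes rose, 3 fell and 3 missed the threshold (median -0.09). Cdh1 (E-cadherin) fell 1.15-fold and Ctnna1, its link to actin, 1.39-fold (-0.47 ± 0.05 SE) in the authors' deposited table. Jup (plakoglobin) rose 1.25-fold, and the nectin genes Nectin1 and Nectin2 rose 1.15-fold and 1.21-fold there. Nectin2 was not called after recentring (adjusted p = 0.0665; 0.0231 to 0.0665 over its alternatives), and its mean over transcripts was 0.12. Nectin3 fell 3.57-fold by the authors' deposited table (-1.83 ± 0.17 SE, base mean 239). Vcl (vinculin) and Nectin4 were at 0.02 ± 0.07 SE and -0.09 ± 0.38 SE there and missed the threshold. The longest UTR of Nectin3 has an 8mer, but it belongs to another transcript than the row that fell, whose own UTR has none.

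**Figure D4:**
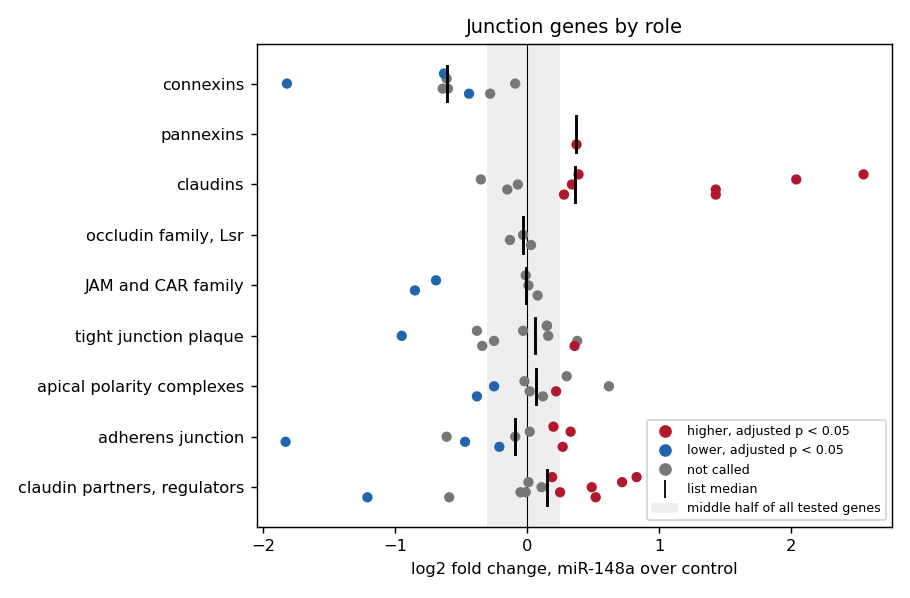
Log2 fold changes (x axis, miR-148a over control) of tested junction genes in rows by role; each point is a gene, coloured by call, black bars are list medians, and the grey band spans the central 50% of all tested genes, from -0.30 to 0.24. The median of the connexins (-0.60) lies left of the band and that of the claudins (0.37) right of it, though single genes of both lists lie inside it and Cldn17 lies left of it; the other lists with more than 1 tested gene have medians inside it.

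Genes that act on claudins were measured as a further list. Epcam, whose product binds Cldn7 protein and protects it from degradation, fell 2.32-fold while Cldn7 rose (-1.21 ± 0.06 SE, base mean 9266, adjusted p = 1.07e-93, authors' deposited table). Of the list's 12 genes 6 rose, 1 fell and 5 missed the threshold (median 0.15). In this list 10 genes had a base mean of at least 100, where 26.4% of all tested genes were called higher and 23.4% lower. The transcription factor genes Grhl3 and Ovol1 rose 1.65-fold and 1.77-fold by the authors' deposited table, and Klf4 rose 1.19-fold. Grhl2, which activates Cldn4 in other epithelia, was at 0.11 ± 0.07 SE there and missed the threshold. Among membrane proteases and their inhibitors, St14 rose 1.14-fold (adjusted p = 0.0237) and Spint1 1.4-fold in the authors' deposited table. Prss8, named after its value was seen, rose 1.44-fold there. St14 was not called after recentring (adjusted p = 0.0623; 0.0149 to 0.0623 over its alternatives).

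The promoters of Cldn4, Gja1 and Gjb2 are shown because Cldn4 and Gja1 share a motif and moved to opposite sides, and Gjb2 had the lowest fold change of the 8 genes. Each is 300 bases long and spans the gene start (RefSeq, GRCm38.p6), 5′ to 3′ on the gene's strand. Capitals mark TGANTCA, the AP-1 motif, and GGGCGG, the GC box, on either strand. All 8 genes had an entry in the RefSeq promoter table.
Cldn4, chr5:134946885-134947184, minus strand: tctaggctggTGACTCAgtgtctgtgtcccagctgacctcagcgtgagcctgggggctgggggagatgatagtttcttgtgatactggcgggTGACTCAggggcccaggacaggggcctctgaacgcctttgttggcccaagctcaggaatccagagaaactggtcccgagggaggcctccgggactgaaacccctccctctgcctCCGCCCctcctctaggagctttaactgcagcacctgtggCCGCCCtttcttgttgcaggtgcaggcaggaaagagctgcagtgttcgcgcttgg
Gja1, chr10:56377050-56377349, plus strand: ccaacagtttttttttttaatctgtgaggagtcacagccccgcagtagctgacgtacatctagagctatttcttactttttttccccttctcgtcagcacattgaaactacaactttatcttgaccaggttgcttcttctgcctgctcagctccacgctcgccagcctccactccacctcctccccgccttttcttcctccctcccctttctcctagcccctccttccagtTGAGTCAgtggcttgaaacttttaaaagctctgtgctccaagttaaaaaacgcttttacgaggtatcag
Gjb2, chr14:57104653-57104952, minus strand: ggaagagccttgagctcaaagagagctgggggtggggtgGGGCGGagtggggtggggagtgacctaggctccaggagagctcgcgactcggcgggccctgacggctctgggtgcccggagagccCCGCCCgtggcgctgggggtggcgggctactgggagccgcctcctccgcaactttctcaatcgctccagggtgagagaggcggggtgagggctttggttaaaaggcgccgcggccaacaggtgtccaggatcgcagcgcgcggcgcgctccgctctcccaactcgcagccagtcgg
TGANTCA was found in Cldn4 (2 matches) and Gja1 (1 match) and in no other of the 8 genes; 7.81% of 32851 promoters hold it. GGGCGG was found in 5 of the 8 genes, counting any of 2 promoters for Cldn7 and Ocln, against 35.7% of promoters. The Grainyhead motif AACCGGTT was found in none of the 8, against 0.146% of promoters. These are matches of letters, with no measurement of binding.

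Markers of the cells that could be present were read in the same table. Over all tested genes 16.7% were called higher and 16.8% lower. At a base mean of at least 100, which all 6 suprabasal markers reached, the shares were 26.4% and 23.4%. The keratinocyte keratin Krt5 was at a base mean of 630448, while the 3 rows of Krt14 were at 40.3, 0 and 0 and Trp63 was listed at 0, by the authors' deposited table. Of 7 tested keratinocyte markers 1 rose, 2 fell and 4 missed the threshold. Suprabasal markers fell beside the connexins: 6 of 6 tested, with a summed computed level of 96481 normalized counts in the control and 56151 with miR-148a. Fibroblasts also express Gja1, and 4 of 7 tested fibroblast markers fell and none rose; their sum was 26427 and 19279, with Pdgfrb at 0. In bulk RNA, fewer cells of a type and less RNA per cell cannot be told apart. The simple epithelial keratins Krt8 and Krt18 rose beside the claudins, 5.54-fold and 3.27-fold in the authors' deposited table. The sum of that list went from 1001 to 3850. Its other genes, Krt20 (base mean 35.2, -0.51 ± 0.34 SE) and Atoh1 (base mean 24, 0.09 ± 0.36 SE), did not pass. Of 7 endothelial markers, which include the connexins Gja4 and Gja5, 4 were at 0 (Pecam1, Tek, Cldn5 and Gja5) and Kdr rose. The list sum of 131 and 772 came almost wholly from Kdr, at 115 and 762. Gja4 (-0.64 ± 0.39 SE) did not pass, and Cdh5 had no adjusted p. Immune and melanocyte markers had 2 of 3 and 1 of 4 tested genes that fell, with sums of 548 and 411, and of 15427 and 14579. Most of the immune sum came from the 1 immune gene with a base mean of at least 100, which missed the threshold. The median log2 fold change of the 3 tested immune genes was -2.63. None of 4 muscle markers had an adjusted p. The part of these cells in the junction results was not tested.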

How the data were processed

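RNA of 3 control and 3 miR-148a libraries was compared by the authors. The submitters' processing notes name DESeq2 and the build mm9; no aligner, counter or annotation is given in the sources used here. The authors' file headers list, for each of 42885 RefSeq transcripts, a deposited base mean (a signal: normalized counts averaged over libraries), a log2 fold change with its standard error, a Wald score, and raw and adjusted p-values. The adjusted ones match Benjamini-Hochberg values to within a relative difference of 0.00885, and are missing up to a base mean of 3.56. A second table that the authors deposited holds counts of genes per gene ontology term, with p-values. Depth per library is unknown. The standard error never exceeded 0.39, even for genes of low counts. Fold changes drawn toward 0 would look so, and folds of low genes would then be understated; no source states it.

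No test between libraries could be run, because no column belongs to a single library. The calls are the authors' adjusted p-values; for the alternatives, p-values were recomputed from the deposited fold changes and standard errors (recentring) or adjusted again over other sets. RefSeq accessions were paired with symbols (42739 matched, GRCm38.p6). Since mm9 differs from that build, coordinates are given only for sequences found in GRCm38. Group levels were computed from base mean and fold change for groups of equal size; 95% intervals use the standard error and a normal distribution. UTRs are from GENCODE M21 (GRCm38). Python 3.11.15, pandas 2.3.3, numpy 2.4.6, scipy 1.17.1 and matplotlib 3.10.9 were used; the recentred Wald test was tested on simulated data.

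The 8 genes, the 9 junction lists, the 8 marker lists and the motifs were chosen with earlier results of these data known. Named from each list were up to 6 called genes at a base mean of 100 or more, by base mean, and the 2 most abundant that did not pass; exceptions are marked. Some genes of the lists are not reported here by name or drawn with a label, though the lists' counts, medians and sums include them. No genes of like pattern were sought, since that needs values per library. Alternatives were recentring, other sets for adjustment, a threshold of 0.01, a base mean of at least 100, and means over transcripts.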

Additional observations from a re-analysis of the deposited data

How the results depend on the processing

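No paired analysis was possible because the expression table has no column per library; for the same reason no replicate could be left out. Under the alternatives run, Gja1, Gjb2, Cldn1, Cldn4 and Cldn7 kept their direction and their call wherever they were tested; Cldn7 is not tested at a base mean of at least 100. Gjb5 came closest to a call after recentring by 0.03 (adjusted p = 0.0505). Recentring moved the share of higher calls among all called genes from 49.8% to 45.2%. With adjustment over all transcripts with a p-value, which takes in genes of low counts, the median log2 fold change became -0.17 for the members, -0.33 for connexins and -0.15 for pannexins. With a base mean of at least 100, fewer genes are tested. The median was then -0.28 for the members, 0.02 for adherens junction genes and 0.22 for claudin partners and regulators, 4 claudins rose in place of 7, and 1 gene of the JAM and CAR family fell in place of 2, as it did at a threshold of 0.01. Of 47 named genes, 44 were labelled the same in all alternatives, a label that allows a change of sign in a gene that was not called. The sign changed for Marveld3 (-0.13, and 0.04 as a mean over transcripts). After recentring it changed for Pard6b and Vcl (both from 0.02 to -0.01). Nectin2 and St14 lost their call in some alternatives. Arhgef2 moved only in size, from -0.95 to -0.67 as a mean over transcripts. The number of the 8 genes with an 8mer or 7mer was 0 by either choice of UTR.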

Other observations

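Junction genes were also counted by their number of RefSeq transcripts; the difference was not tested, and expression level was not taken into account. Of the 57 junction genes with 1 transcript in the table, 39 had an adjusted p and 31 a base mean of at least 100. Of the 56 with 2 or more, 27 had an adjusted p and 12 a base mean of at least 100. Over all genes the shares with an adjusted p were 50.5% (1 transcript) and 30.6% (2 or more). Gjb6 (2 transcripts) and Ocln (5) are among those without one, and so is Cdh3, the gene of P-cadherin of basal keratinocytes, whose 2 transcripts were both listed at 0 in the authors' deposited table. Marveld3 has rows on both sides of 0 in the authors' deposited table: NM_028584 at -0.13 ± 0.20 SE (base mean 222) and NM_212447 at 0.47 ± 0.24 SE (base mean 86.6, adjusted p = 0.134).

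Junction genes were also grouped by the best match in their longest annotated UTR, which is not always that of the row counted. Nectin3 (8mer, fell), Ctnna1 (6mer, fell) and St14 (7mer-A1, rose) are among those whose row transcript has no match. In the junction lists, 4 tested genes had an 8mer for miR-148a-3p, of which 1 rose (Panx1), 1 fell (Nectin3) and 2 did not pass. Of 4 with a 7mer-m8, 2 rose and none fell. Of 11 with a 7mer-A1, 3 rose and 1 fell. Of 9 with a 6mer, 1 rose and 3 fell. Of 37 with no match, 12 rose and 7 fell. Over all 11038 tested genes 16.7% were called higher and 16.8% lower. At a base mean of at least 100, which many of these junction genes reach, the shares were 26.4% and 23.4%.

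The authors' deposited gene ontology table lists gap junction channel activity with 0 changed genes of 1, and bicellular tight junction with 0 of 2. Cell adhesion stands at 2 of 3, with an adjusted p of 1. How the authors chose changed genes for it is not stated in a source used here.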
